A study of Drosophila melanogaster with 58 samples.

Results

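Ribosomal protein genes were followed in fly embryos with too much or too little of the transcription factor Glial cells missing (gcm). The members were all array probes whose annotated gene symbol begins with RpL or RpS, taken as cytosolic ribosomal proteins, or with mRpL or mRpS, taken as mitochondrial ones. This gave 112 of 23808 probes, for 102 genes: 41 cytosolic probes for 36 genes and 71 mitochondrial probes for 66 genes. A further 5 probes that are annotated to a ribosomal protein gene together with another gene were not counted as members.

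The embryos were compared on 58 2-colour arrays of Drosophila melanogaster, each of which set perturbed embryos against wild-type embryos of the same stage. In the gain-of-function experiment (GOF, 33 arrays at stages 9 to 16), embryos from a cross of the Gal4 line MZ1060 with the UAS-gcm stock B5446 were set against a pool of mRNA from both parental lines in equal amounts, so that the wild-type side carried the driver and the transgene in separate embryos. The labels do not name the tissue in which MZ1060 is active. In the loss-of-function experiment (LOF, 25 arrays at stages 10 to 14 and 16), homozygous gcmN7-4 mutants, sorted automatically because they lacked the GFP of a Kr-GFP balancer (to stage 13) or a Ubi-GFP balancer (from stage 14), were set against OregonR embryos handled in the same manner. Whole embryos were used, so fewer cells of a type and less RNA per cell cannot be told apart. Every group had 4 arrays, except GOF stage 14 and LOF stage 10 with 5 each, and both dye orientations occurred in every group. All values below are log2 ratios of perturbed over wild type after each array was centred on the median of its probes, so 0 is the array's typical probe.

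Cytosolic ribosomes translate the mRNAs made in the nucleus, and their proteins are among the most abundantly made products of a growing cell; in flies, loss of 1 copy of many of these genes gives the Minute phenotype of slow growth and short bristles. Mitochondrial ribosomes are a separate set of particles in the mitochondrial matrix that make the few proteins encoded by mitochondrial DNA, all of them parts of the oxidative phosphorylation system. Their proteins are encoded in the nucleus, made in the cytosol and imported; some have bacterial counterparts and others are found only in mitochondria. gcm is the switch of glial fate in the fly embryo and also acts in blood cell development. Several cytosolic ribosomal proteins have a second gene copy used mainly in the germline.

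The gcm probe was higher on 31 of 33 GOF arrays, with an average log2 ratio of 1.35 ± 0.10 (SE; limma adjusted p = 8.4e-15), and lower on 23 of 25 LOF arrays, with an average of -0.95 ± 0.12 (SE; limma adjusted p = 1.0e-08). The stages were not alike. At GOF stage 9 the 4 values were -0.16, 0.33, 0.40 and -0.038, on both sides of 0. At LOF stage 12 they were -1.22, -0.40, -0.31 and 0.74, and at LOF stage 16 replicate 1 had 0.27 where the other arrays lay between -2.40 and -0.61. The arrays labelled LOF stage 12 replicate 4 and LOF stage 16 replicate 1 thus went against their label for gcm, as did GOF stage 9 replicates 1 and 4. Counts without these arrays stand beside the averages, the comparison of the experiments and the stages they belong to. Between 2.33% and 54.5% of the probes were missing on an array (median 7.67%), and 3 arrays lacked over 40%. The member probes were measured more evenly than the rest: the median residual SD between arrays was 0.470 for cytosolic members, 0.548 for mitochondrial members and 1.21 for all probes, and 29 cytosolic and 41 mitochondrial probes had a value on every array.

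In the main fit the mitochondrial class lay lower in gcm mutants than in wild type, while the cytosolic class had few calls in either experiment. In the LOF average over stages, 0 of 64 tested mitochondrial members were higher and 38 were lower, with a median log2 ratio of -0.32, and 57 of the 64 were below 0; without the array centring 4 were lower and the median was -0.17, and with the replicate block 18 passed. Over all 15025 probes tested in that average, 13.9% were called higher and 13.8% lower (27.6% either way) and the median was 0.0015. Of 38 tested cytosolic members, 3 were higher and 2 lower, with a median of -0.11. That count was not stable: it was 11 (3 higher, 8 lower) without LOF stage 11 replicate 3, 8 (2 higher, 6 lower) without LOF stage 12 replicate 4, 10 (2 higher, 8 lower) with array weights and 2 (1 higher, 1 lower) with the replicate block. Where only spot pairs with an SD under 1/3 were kept, 13 of 14 tested cytosolic members passed, 1 higher and 12 lower. In that setting 8 of 8 tested mitochondrial members were lower. In the GOF average, 2 of 66 tested mitochondrial members were higher and 17 lower, with a median of -0.16; over all 14780 probes tested, 14.1% were called higher and 13.6% lower (27.8% either way) and the median was -0.010. The GOF count of lower mitochondrial members was 17 without stage 9 replicate 1 and 17 without stage 9 replicate 4, but 1 without the array centring and 6 with the replicate block. Of 39 tested cytosolic members 1 was higher and 1 lower, with a median of -0.052. A call here means a limma adjusted p (Benjamini-Hochberg over all tested probes) under 0.05. The replicate block is a fit with added terms for the replicate numbers. Under these alternative fits the share of all probes called was not taken. Their counts thus cannot be told apart from a change over all probes. Among probes annotated to 1 gene, 32.5% were called either way in the LOF average and 34.8% in the GOF average. The labels speak of independent experiments but do not say that each array had its own RNA extract, so the p-values measure the spread between these arrays.

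The class medians were also taken on single arrays. The cytosolic median exceeded the mitochondrial median on 22 of 25 LOF arrays, with a mean difference of 0.294 ± 0.260 (SD, n = 25), and on 20 of 33 GOF arrays, with a mean difference of 0.0893 ± 0.214 (SD, n = 33). The mitochondrial median was below 0 on 24 of 25 LOF arrays and on 24 of 33 GOF arrays, while the cytosolic median was below 0 on 16 of 33 GOF arrays and 12 of 25 LOF arrays. Without the 4 arrays whose gcm value went against the label, the cytosolic median was the higher one on 20 of 31 GOF arrays and 20 of 23 LOF arrays, and the mitochondrial median was below 0 on 23 of 31 and 22 of 23. The difference moved with the dye. In the LOF experiment it was 0.377 ± 0.242 (SD, n = 14) where the perturbed sample was in Cy5 and 0.188 ± 0.253 (SD, n = 11) where it was in Cy3; in the GOF experiment it was 0.227 ± 0.153 (SD, n = 15) in Cy5 and -0.0258 ± 0.191 (SD, n = 18) in Cy3. The cytosolic median was the higher one on 13 of 14 and 9 of 11 LOF arrays, and on 13 of 15 and 7 of 18 GOF arrays, in Cy5 and Cy3 in turn, so the GOF difference was seen in 1 orientation and the LOF difference in both. The mitochondrial median of the LOF arrays was alike in the orientations, at -0.341 ± 0.248 (SD, n = 14) in Cy5 and -0.350 ± 0.336 (SD, n = 11) in Cy3.

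**Figure D1:**
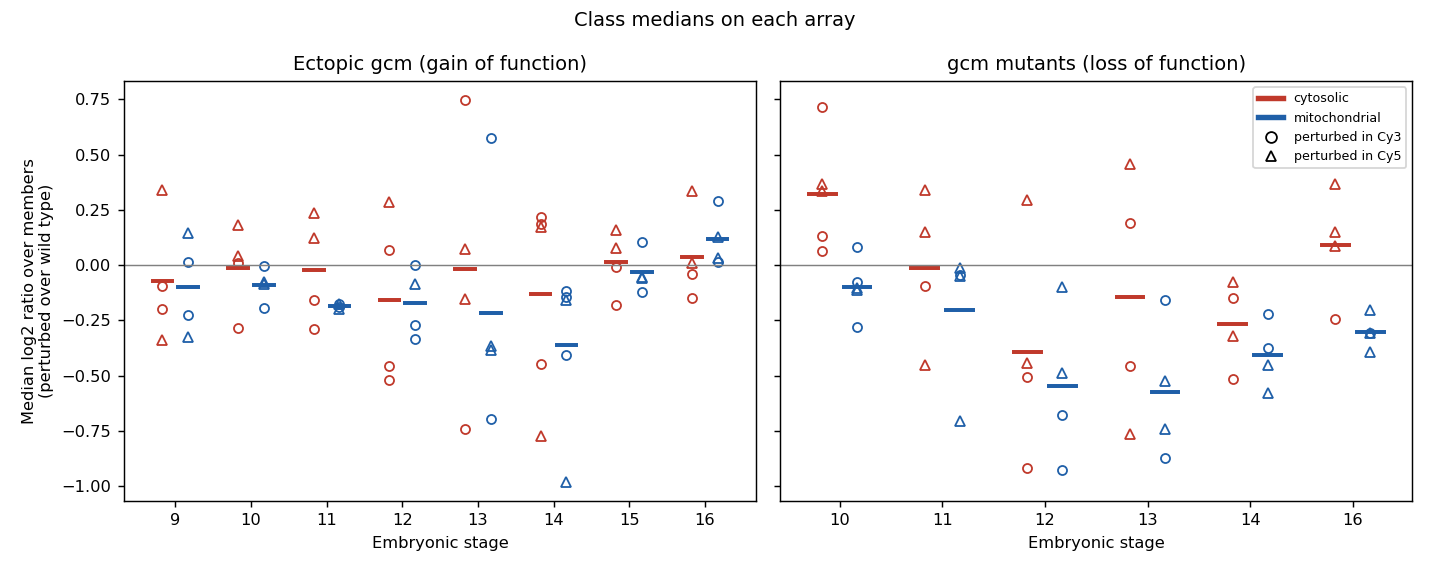
Median log2 ratio (perturbed over wild type) of the cytosolic and mitochondrial members on each array, by embryonic stage, with gain of function on the left and loss of function on the right. Points are arrays, their shape gives the dye of the perturbed sample, and bars are means over the arrays of a stage. In the mutants 24 of 25 mitochondrial points lie below 0, while the cytosolic points scatter on both sides.

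Across the LOF stages the mitochondrial median was -0.053 at stage 10, -0.21 at stage 11, -0.60 at stage 12, -0.60 at stage 13, -0.41 at stage 14 and -0.35 at stage 16. At stage 12 the mitochondrial medians of the 4 arrays were -0.93, -0.68, -0.49 and -0.097, and at stage 13 they were -0.16, -0.87, -0.52 and -0.74, so all 8 arrays were below 0 but spread widely. The cytosolic medians of the same stages were 0.39, -0.099, -0.39, -0.13, -0.25 and 0.13, with no single direction. Stage 11 rested on 1 array: without replicate 2 its mitochondrial median was 0.017.

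In the GOF experiment the mitochondrial medians over stages 9 to 16 were -0.066, -0.091, -0.22, -0.24, -0.25, -0.38, -0.029 and 0.11, lowest at stage 14 and above 0 at stage 16. The cytosolic medians lay between -0.15 and 0.041 at all 8 stages. At GOF stage 13 the arrays disagreed most: replicate 2 had a mitochondrial median of 0.57 and replicate 1 one of -0.70, and the cytosolic medians of the same arrays were 0.75 and -0.74. Without replicate 2 the stage's mitochondrial median was -0.51 and its cytosolic median -0.33.

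Both subunits of the mitochondrial ribosome, taken from the gene symbols, held lower members. Of all tested probes, 13.8% were lower in the LOF average and 13.6% in the GOF average. Called either way in the GOF average were 24% of the mRpS members and 27.8% of all tested probes, so that count lies near the share of all probes. In the LOF average 28 of 42 tested large-subunit members (mRpL) and 10 of 22 tested small-subunit members (mRpS) were lower, with medians of -0.37 and -0.31. In the GOF average 12 of 41 mRpL members were lower and 1 higher (median -0.18), and 5 of 25 mRpS members were lower and 1 higher (median -0.067). The higher one was mRpS30, whose human counterpart sits in the large subunit in spite of its name; without it 5 of 24 were lower and none higher (median -0.088). Among cytosolic members, large-subunit (RpL) medians were -0.085 in the LOF average and -0.035 in the GOF average, and small-subunit (RpS) medians -0.11 and -0.060. No test of a difference between subunits was made.

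**Figure D2:**
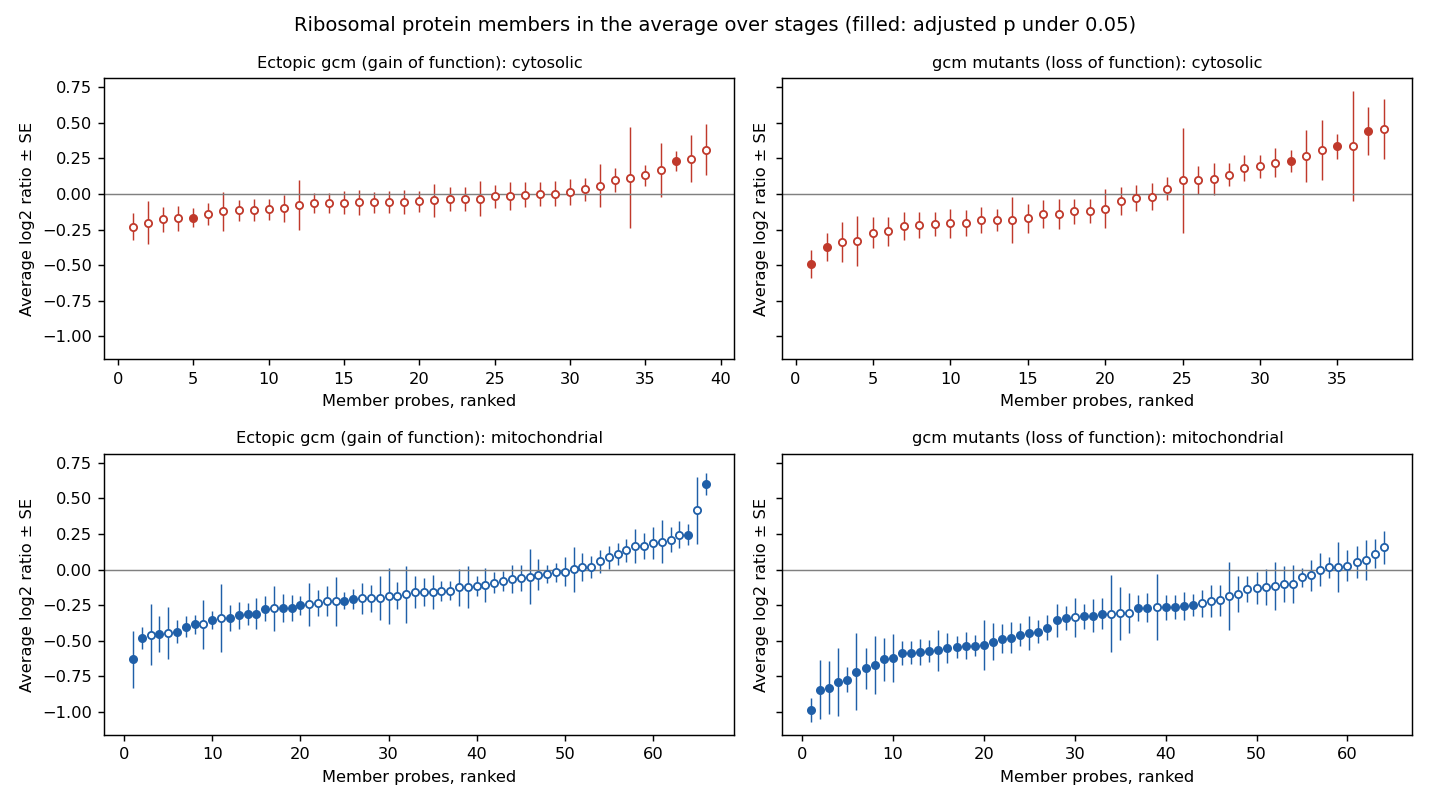
Average log2 ratio ± SE of every tested member, ranked within its class, with cytosolic members above and mitochondrial members below and gain of function left of loss of function. Filled points passed the test. Of the 64 mitochondrial members in the mutants 38 are filled, all below 0.

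mRpL3, a large-subunit protein whose bacterial counterpart lies near the peptidyl transferase centre, was the lowest mitochondrial member in the mutants. Its log2 ratios were -0.33, -0.77, -0.71, 0.098 and -0.77 at LOF stage 10, and -1.40, -0.61, -0.92 and -1.04 at stage 11. They were -1.66, -1.75, -1.25 and -0.33 at stage 12, and -1.28, -2.30, -1.45 and -0.76 at stage 13. They were -1.18, -0.71, -0.57 and -0.94 at stage 14, and -0.89, -0.91, -0.63 and -0.38 at stage 16. All but 1 of the 25 arrays were below 0, and the lowest values stood at stages 12 and 13. The LOF average was -0.99 ± 0.083 (SE), a 1.98-fold lower level (limma adjusted p = 6.1e-13), and mRpL3 passed at each LOF stage from 11 to 16, 5 of 6 stages tested. In the GOF experiment it was also lower on average, by less: -0.40 ± 0.072 (SE; limma adjusted p = 1.8e-05, lower on 27 of 33 arrays), with array values from -1.22 to 0.57 (median -0.41) and no single stage past the threshold.

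mRpL21, another large-subunit protein with a bacterial counterpart, had LOF values from -3.14 to 0.52 (median -0.77, lower on 21 of 24 arrays) and an average of -0.84 ± 0.20 (SE; limma adjusted p = 0.0013). mRpL50 and mRpL37 are mitochondria-specific proteins of the large subunit. mRpL50 was read by a pair of probes that gave -0.83 ± 0.19 (probe 1) and -0.63 ± 0.15 (probe 2; SE), with limma adjusted p = 5.0e-04 and 0.0011. Probe 1 held 1 extreme array, -5.25 at LOF stage 14, without which its LOF average was -0.63. mRpL37 averaged -0.79 ± 0.24 (SE; limma adjusted p = 0.011) with values from -2.93 to 1.67 (median -0.93, lower on 17 of 23 arrays). Its call was lost without LOF stage 11 replicate 1, where the average was -0.60. mRpL37 was also the lowest mitochondrial member of the GOF average, at -0.63 ± 0.20 (SE; limma adjusted p = 0.014, lower on 28 of 33 arrays).

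The smallest LOF reductions that passed the test were much smaller than that of mRpL3 and less even over arrays. mRpL4 averaged -0.26 ± 0.088 (SE; limma adjusted p = 0.019, lower on 18 of 25 arrays). mRpL13 averaged -0.26 ± 0.082 (SE; limma adjusted p = 0.012, lower on 17 of 25). mRpS7 averaged -0.25 ± 0.096 (SE; limma adjusted p = 0.043, lower on 16 of 25) and mRpL51 -0.25 ± 0.075 (SE; limma adjusted p = 0.0097, lower on 14 of 25). All of these lay on both sides of 0 across the LOF arrays, and the call of mRpS7 was lost with 15 of the 25 arrays left out singly, LOF stage 16 replicate 1 among them (-0.23; limma adjusted p = 0.096). The highest tested mitochondrial member of the LOF average was mRpS22, at 0.16 ± 0.11 (SE; limma adjusted p = 0.35), which did not pass.

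3 further members are given that were chosen after their values were seen, because they were lower on nearly every LOF array. Their evenness over arrays follows from that choice. mRpL12, the protein of the mitochondrial ribosome stalk that recruits translation factors, was below 0 on 25 of 25 LOF arrays, between -1.52 and -0.058 (median -0.42), and averaged -0.57 ± 0.077 (SE; limma adjusted p = 1.0e-07). mRpS35, a mitochondria-specific small-subunit protein, was lower on 24 of 25, between -1.51 and 0.12 (median -0.71), with an average of -0.77 ± 0.090 (SE; limma adjusted p = 3.3e-09). mRpL46 was lower on 24 of 25, between -1.87 and 0.057 (median -0.45), with an average of -0.53 ± 0.074 (SE; limma adjusted p = 1.8e-07). All 3 were lower in the GOF average too, mRpL12 at -0.39 ± 0.067, mRpS35 at -0.48 ± 0.078 and mRpL46 at -0.35 ± 0.064 (SE), on 26, 28 and 26 of 33 arrays.

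**Figure D3:**
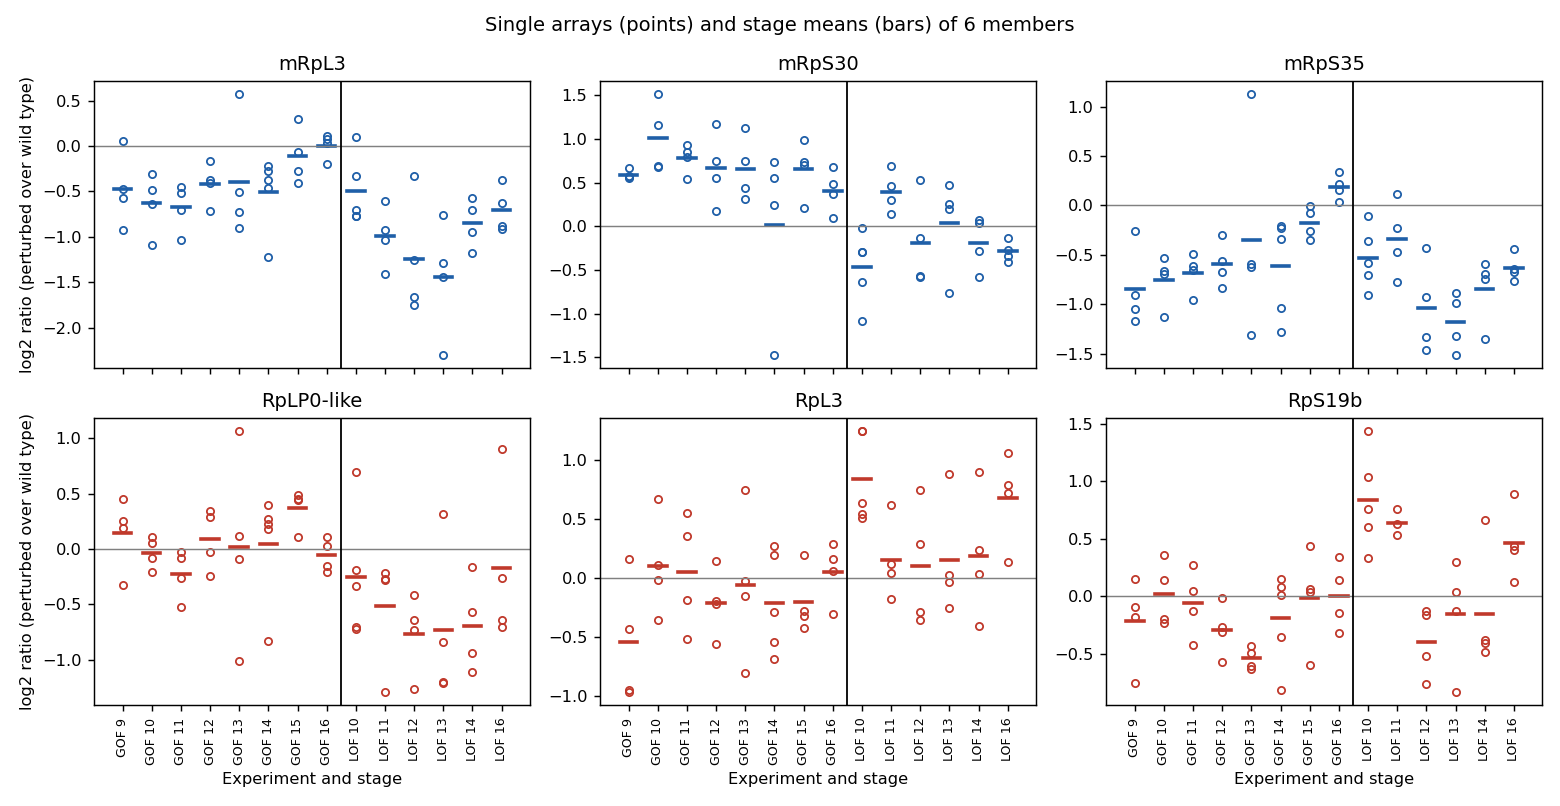
log2 ratio (perturbed over wild type) of 6 members on single arrays (points) with stage means (bars), gain-of-function stages left of the line and loss-of-function stages right of it. mRpL3 lies below 0 on 24 of 25 mutant arrays, mRpS30 above 0 on 31 of 32 gain-of-function arrays, and RpL3 and RpS19b are highest at LOF stage 10.

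mRpS30 had the higher ratio of the 2 mitochondrial members called higher in the GOF average. Its values were 0.66, 0.55, 0.57 and 0.56 at GOF stage 9, and 1.15, 0.68, 0.69 and 1.51 at stage 10. Later stages gave 0.54 to 0.93 (stage 11), 0.17 to 1.17 (stage 12) and 0.31 to 1.12 (stage 13). It had -1.47, 0.55, 0.74 and 0.24 at stage 14, where replicate 2 gave no value, then 0.21 to 0.99 (stage 15) and 0.10 to 0.67 (stage 16). mRpS30 was thus above 0 on 31 of 32 arrays, with an average of 0.60 ± 0.080 (SE), a 1.52-fold higher level (limma adjusted p = 5.8e-08). In the mutants its average was -0.13 with values on both sides of 0, and it did not pass.

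mRpL39, a mitochondria-specific large-subunit protein, was the other member that rose: 0.25 ± 0.074 (SE; limma adjusted p = 0.0082, higher on 28 of 33 arrays, from -0.56 to 1.14). In the LOF average it fell, to -0.34 ± 0.085 (SE; limma adjusted p = 0.0016, lower on 19 of 25). The lowest called members of the GOF average beside mRpL37 were mRpS35, mRpL9 at -0.45 ± 0.13 (limma adjusted p = 0.0046, lower on 25 of 33) and mRpL22 at -0.43 ± 0.081 (limma adjusted p = 3.1e-05, lower on 27 of 33). The smallest called reductions were mRpL44, a mitochondria-specific protein with an RNase III-like fold, at -0.22 ± 0.059 (limma adjusted p = 0.0034), and mRpS16 at -0.21 ± 0.069 (limma adjusted p = 0.020).

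The lower members of both averages were set side by side. Of the 17 mitochondrial members lower in the GOF average, 14 were also lower in the LOF average, which is 82.4% of the GOF list and 36.8% of the LOF list. The other three were mRpL18, mRpL44 and mRpL48. Of all 12223 probes tested in both, 1951 were lower in the GOF average and 867 of these were lower in the LOF average as well, 44.4% of the GOF list and 43.4% of the LOF list. Since 38 of the 64 tested mitochondrial members were lower in the LOF average in any case, and the GOF list held 1 member without the centring, the overlap is a description. Of 63 mitochondrial members tested in both, 45 were below 0 in both and 49 had the lower value in the mutants. The control samples of the experiments are different, a parental pool in GOF and OregonR in LOF.

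**Figure D4:**
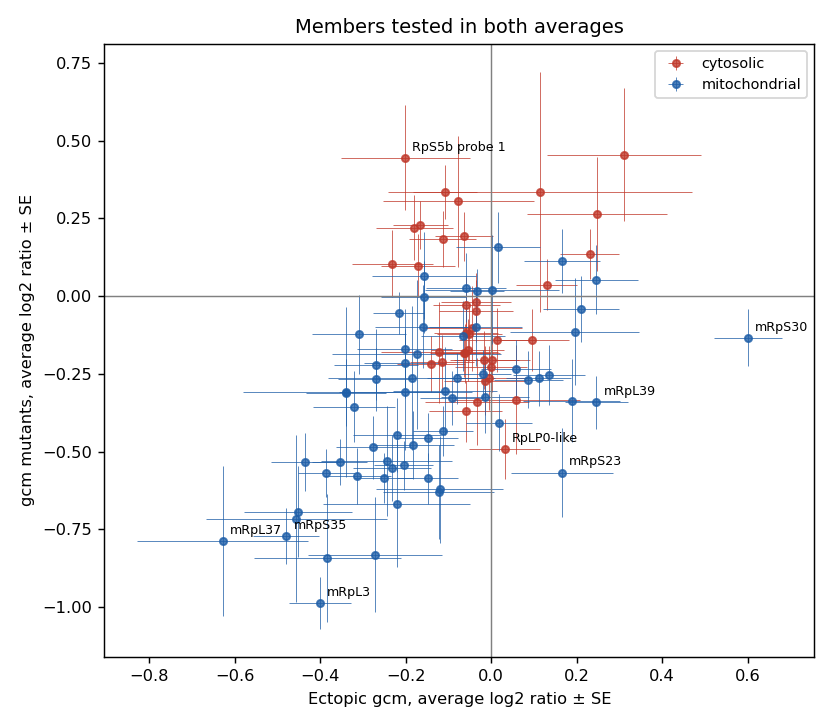
Average log2 ratio ± SE of each member tested in both experiments, with ectopic gcm on the horizontal axis and gcm mutants on the vertical axis. Mitochondrial members gather in the lower left, with mRpL3 at -0.40 and -0.99 and mRpL37 at -0.63 and -0.79; mRpS30 lies at 0.60 on the horizontal axis.

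Over the stages that both experiments share (10 to 14 and 16, 50 arrays), the GOF ratio was set against the LOF ratio. Of 64 tested mitochondrial members 8 had a higher ratio in GOF and 0 a lower one, with a median difference of 0.21; over all 13264 probes tested 11% were called higher and 6.45% lower (17.4% either way) and the median was 0.018. The largest differences were those of mRpS30, 0.73 ± 0.13 (SE; 0.59 in GOF and -0.13 in LOF; limma adjusted p = 5.0e-05), of mRpS23, 0.71 ± 0.20 (SE; 0.15 in GOF and -0.57 in LOF; limma adjusted p = 0.0084), and of mRpL39, 0.57 ± 0.12 (SE; 0.22 in GOF and -0.34 in LOF; limma adjusted p = 4.8e-04). mRpL3 was called too, at 0.55 ± 0.12 (SE), with -0.44 in GOF and -0.99 in LOF: lower than wild type in both, and lower still in the mutants. Of 37 tested cytosolic members 1 was higher in GOF and 3 were lower (median 0.071). Without LOF stage 12 replicate 4, 12 mitochondrial members were higher in GOF (median 0.23), and 1 cytosolic member was higher and 2 lower; without LOF stage 16 replicate 1, 7 mitochondrial members were higher (median 0.20), and 1 cytosolic member was higher and 3 lower.

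Few cytosolic members were called in the GOF experiment: in the limma fit 0 passed at any of the 8 GOF stages, and 0 to 4 a stage had an unadjusted p under 0.05. Over all tested probes 9.37% were called at GOF stage 9, 4.35% at stage 10 and 0.222% to 3.15% at stages 11 to 16. A count of 0 among 40 or 41 members lies near the shares of stages 11 to 16. A single stage could miss real changes. In a simulation over 12223 probes, shifts of 0.5 and 1 at GOF stage 12 were recovered for 3 and 31 of 100 probes. Cytosolic members varied less than all probes (median residual SD 0.470 against 1.21), so these shares do not give the recovery for the members. In the average RpL7-like probe 2 was higher, at 0.23 ± 0.069 (SE; limma adjusted p = 0.0082, higher on 28 of 33 arrays, from -0.26 to 1.14), while probe 1 of the same gene gave 0.13 ± 0.071 and did not pass. The human counterpart of RpL7-like acts in ribosome assembly. RpS19b, a copy of the small-subunit protein used mainly in the germline, was lower, at -0.17 ± 0.064 (SE; limma adjusted p = 0.048, lower on 20 of 33 arrays, from -0.81 to 0.44), a call that was lost with 22 of the 33 arrays left out singly. The highest tested value, RpL22-like at 0.31 ± 0.18, and the lowest, RpS20 at -0.23 ± 0.094 (SE), did not pass (limma adjusted p = 0.22 and 0.062).

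In the mutants 5 cytosolic members passed in the main fit, where the settings given above gave 2 to 13. RpLP0-like, whose human counterpart is an assembly factor of the large subunit rather than a ribosomal protein, was lowest. Its values were 0.69, -0.71, -0.34, -0.72 and -0.19 at LOF stage 10, -0.22, -1.29, -0.27 and -0.28 at stage 11, and -0.65, -0.42, -1.26 and -0.74 at stage 12. Stage 13 gave 0.32, -1.21, -0.84 and -1.20, stage 14 gave -0.94, -0.57, -0.17 and -1.12, and stage 16 gave 0.91, -0.26, -0.64 and -0.71. It was below 0 on 22 of 25 arrays, with an average of -0.49 ± 0.096 (SE), a 1.41-fold lower level (limma adjusted p = 7.5e-05). In the GOF average it was 0.032 ± 0.083, on both sides of 0, and over the shared stages the ratio in GOF exceeded that in LOF by 0.45 ± 0.14 (SE; limma adjusted p = 0.015). RpLP0 itself, the core protein of the cytosolic stalk, gave -0.17 ± 0.087 in the GOF average and 0.098 ± 0.10 in the LOF average, neither past the threshold.

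RpS30, which is made as a fusion with a ubiquitin-like protein, was the other member to fall in the mutants, to -0.37 ± 0.099 (SE; limma adjusted p = 0.0033, lower on 18 of 25 arrays, from -1.48 to 0.70); without LOF stages 12 and 13 it was -0.27 and did not pass (limma adjusted p = 0.13). RpL40 and RpS27A, which are made as fusions with ubiquitin, gave -0.12 ± 0.088 and -0.21 ± 0.093 (SE) and did not pass. RpL3, the cytosolic relative of mRpL3, went the other way from its mitochondrial namesake: 0.33 ± 0.087 (SE; limma adjusted p = 0.0026), higher on 19 of 25 LOF arrays, with values from -0.41 to 1.25 (median 0.29). RpS5b probe 1 was higher at 0.44 ± 0.17 (SE; limma adjusted p = 0.043, on 20 of 25 arrays), a call lost with 14 of the 25 arrays left out singly, among them LOF stage 12 replicate 4 (0.38; limma adjusted p = 0.087) and LOF stage 16 replicate 1 (0.43; limma adjusted p = 0.071). Its other probe gave 0.096 ± 0.37. RpS19b averaged 0.23 ± 0.076 (SE; limma adjusted p = 0.020, higher on 15 of 24 arrays), and without LOF stage 14 replicate 1 it was 0.19 and did not pass.

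RpS19b also lay on different sides of 0 at different stages. Its values were 1.44, 1.04, 0.76, 0.61 and 0.34 at LOF stage 10 and 0.76, 0.53 and 0.63 at stage 11. They were -0.16, -0.13, -0.77 and -0.52 at stage 12, then 0.30, -0.13, 0.041 and -0.83 at stage 13 and 0.66, -0.40, -0.38 and -0.48 at stage 14. At stage 16 they were 0.44, 0.12, 0.41 and 0.89. All 8 values of stages 10 and 11 were above 0 and all 4 of stage 12 below. Over the shared stages RpS19b had -0.18 in GOF and 0.23 in LOF, a difference of -0.41 ± 0.11 (SE; limma adjusted p = 0.0041), and RpS5b probe 1 had -0.29 in GOF and 0.44 in LOF, a difference of -0.73 ± 0.24 (SE; limma adjusted p = 0.030). RpL3 was the remaining cytosolic call, at -0.35 ± 0.12 (SE; -0.019 in GOF and 0.33 in LOF; limma adjusted p = 0.039).

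The set of paralogue pairs (such as RpS5b, RpS19b, RpS28a and RpS28b) and of pairs with a gene named -like (RpLP0 and RpLP0-like among them) held 16 of the 41 cytosolic probes. RpL37-1 and RpL37-2, also a pair, were left out of this set and counted with the other cytosolic members. In the LOF average RpL37-1 probe 2 gave -0.33 ± 0.18 and RpL37-2 -0.049 ± 0.10 (SE), and neither passed. The counts and medians below thus do not part all pairs from the rest. In the LOF average 2 of 14 tested were higher and 1 lower, with a median of 0.097, against 1 of 24 higher and 1 lower with a median of -0.16 among the other cytosolic members. In the GOF average 1 of 14 was higher and 1 lower (median 0.013), against 0 of 25 in both directions among the others (median -0.055). Both cytosolic calls of the GOF average thus belong to such pairs. Of all tested probes, 13.9% were higher and 13.8% lower in the LOF average, and 14.1% and 13.6% in the GOF average. No test of a difference between the set of pairs and the other members was made. Other copies did not pass: RpS28a gave 0.31 ± 0.21 and RpS28b -0.26 ± 0.10 in the LOF average (SE), and RpL10Ab gave -0.18 ± 0.078, while RpL10Aa lacked the arrays needed for a test in the LOF average. RpS15Ab gave -0.12 ± 0.085, RpL24-like, whose human counterpart acts in subunit assembly, -0.14 ± 0.10, and RpL34a 0.33 ± 0.39 (SE). RpS10a was not tested in either average. It ranged from -1.85 to 6.16 on the GOF arrays and from -3.92 to 5.99 on the LOF arrays. RpL22-like, a copy used mainly in the testis, was the highest tested cytosolic member of both averages, at 0.31 in GOF and 0.46 ± 0.21 in LOF, and passed in neither (LOF limma adjusted p = 0.11).

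Single stages were tested with 4 or 5 arrays each. At LOF stage 10, 5 of 41 cytosolic members and 2 of 71 mitochondrial members were higher and none lower (5.41% of all 23520 tested probes were called, 2.96% higher and 2.44% lower). The cytosolic calls, all named here after their values were seen, were RpL3 at 0.87, RpL27 at 0.82, RpS19b at 0.79, RpLP0 at 0.73 and RpS26 at 0.68, with limma adjusted p between 9.9e-04 and 0.043. RpL3 was 1.25, 0.64, 0.55, 1.25 and 0.51 on the 5 arrays. mRpL10, the base of the mitochondrial stalk, was 5.04, 1.21, 0.69, 0.51 and 0.78, above 0 on all 5 arrays and carried by replicate 1: the fitted ratio was 1.59 with it and 0.80 without it, and the call held. mRpL28 was the other mitochondrial call, at 0.62. Over the alternatives the calls at this stage ranged from 0 to 14 in the cytosolic class and from 0 to 14 in the mitochondrial class: none passed without the array centring, and with array weights 4 mitochondrial members were higher and 10 lower.

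At LOF stage 11, 1 of 39 cytosolic members was higher and 4 of 66 mitochondrial members were lower (8.67% of 19023 probes were called, 2.89% higher and 5.79% lower). They were RpS19b at 0.71, which no longer passed without any 1 of its 3 arrays, then mRpL9 at -1.26, mRpL3 at -1.11, mRpS26 at -0.94 and mRpL22 at -0.93 (named after their values were seen, apart from RpS19b and mRpL9). mRpL9 had -0.59, -2.67, -0.31 and -1.58, and it did not pass without replicate 2 (-0.82) or without replicate 4 (-1.17).

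In the main fit, which used the array centring, the mitochondrial calls were most numerous at LOF stages 12 and 13. At stage 12, 14 of 69 mitochondrial and 2 of 41 cytosolic members were lower and none higher (7.32% of 20361 probes were called, 4.41% higher and 2.91% lower); 67 of the 69 mitochondrial values were below 0, but so were 36 of the 41 cytosolic ones. At stage 13, 18 of 70 mitochondrial and 2 of 41 cytosolic members were lower and none higher (9.6% of 21469 probes, 5.89% higher and 3.71% lower), with 62 of 70 and 29 of 41 below 0. At stage 12 the array labelled replicate 4, where gcm was 0.74, had the highest medians of both classes; without it 19 mitochondrial members were lower and the medians were -0.75 (mitochondrial) and -0.63 (cytosolic), and without replicate 1 the mitochondrial count was 5. At stage 13 the count was 9 without replicate 2. Over the alternatives the mitochondrial calls ranged from 0 to 33 at stage 12, and from 0 to 26 at stages 13 and 14 alike. The order of the stages is thus given for the main fit only.

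At stage 12 mRpL38 had the largest fitted ratio among mitochondrial calls, -1.41, on array values of -0.88, -2.03, -3.77 and 1.02; it did not pass without replicate 3 (-0.61) or without replicate 2 (-1.17), and without replicate 4 it was -2.30 (limma adjusted p = 6.3e-04). RpLP2, an acidic protein of the cytosolic stalk, had -1.29, -0.57, -0.90 and -0.68 (fitted ratio -0.86; limma adjusted p = 0.0079), a call lost with 2 of its 4 arrays left out singly; without replicate 4 it was -0.89 (limma adjusted p = 0.027). At stage 13 mRpL3 led with -1.45 (limma adjusted p = 3.3e-06). RpLP0-like was -0.74 there (limma adjusted p = 0.038) and did not pass without replicate 2 (-0.48), 3 (-0.78) or 4 (-0.65); RpL36A probe 2, named after its value was seen, was the other cytosolic call, at -0.71.

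At LOF stage 14, 3 of 71 mitochondrial members were lower and no cytosolic one was called (2.55% of 22385 probes, 1.8% higher and 0.746% lower). mRpL50 probe 1 had -1.01, -5.25, -0.60 and -0.79, with a fitted ratio of -1.91, and without replicate 2 it gave -0.81 and did not pass; mRpL3 (-0.85) and mRpS35 (-0.84) were the others. At LOF stage 16, 1 of 71 mitochondrial members, mRpL3 at -0.82, was lower (3.58% of 21756 probes were called, 1.99% higher and 1.59% lower). In the limma fit 0 cytosolic members passed at LOF stages 14 and 16, where 4 and 5 had an unadjusted p under 0.05, and the call of mRpL3 at stage 16 was lost with 2 of the 4 arrays left out singly. Without replicate 1, where gcm was 0.27, mRpL3 was -0.89 (limma adjusted p = 0.048), and the stage medians were -0.34 (mitochondrial) and 0.051 (cytosolic).

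**Figure D5:**
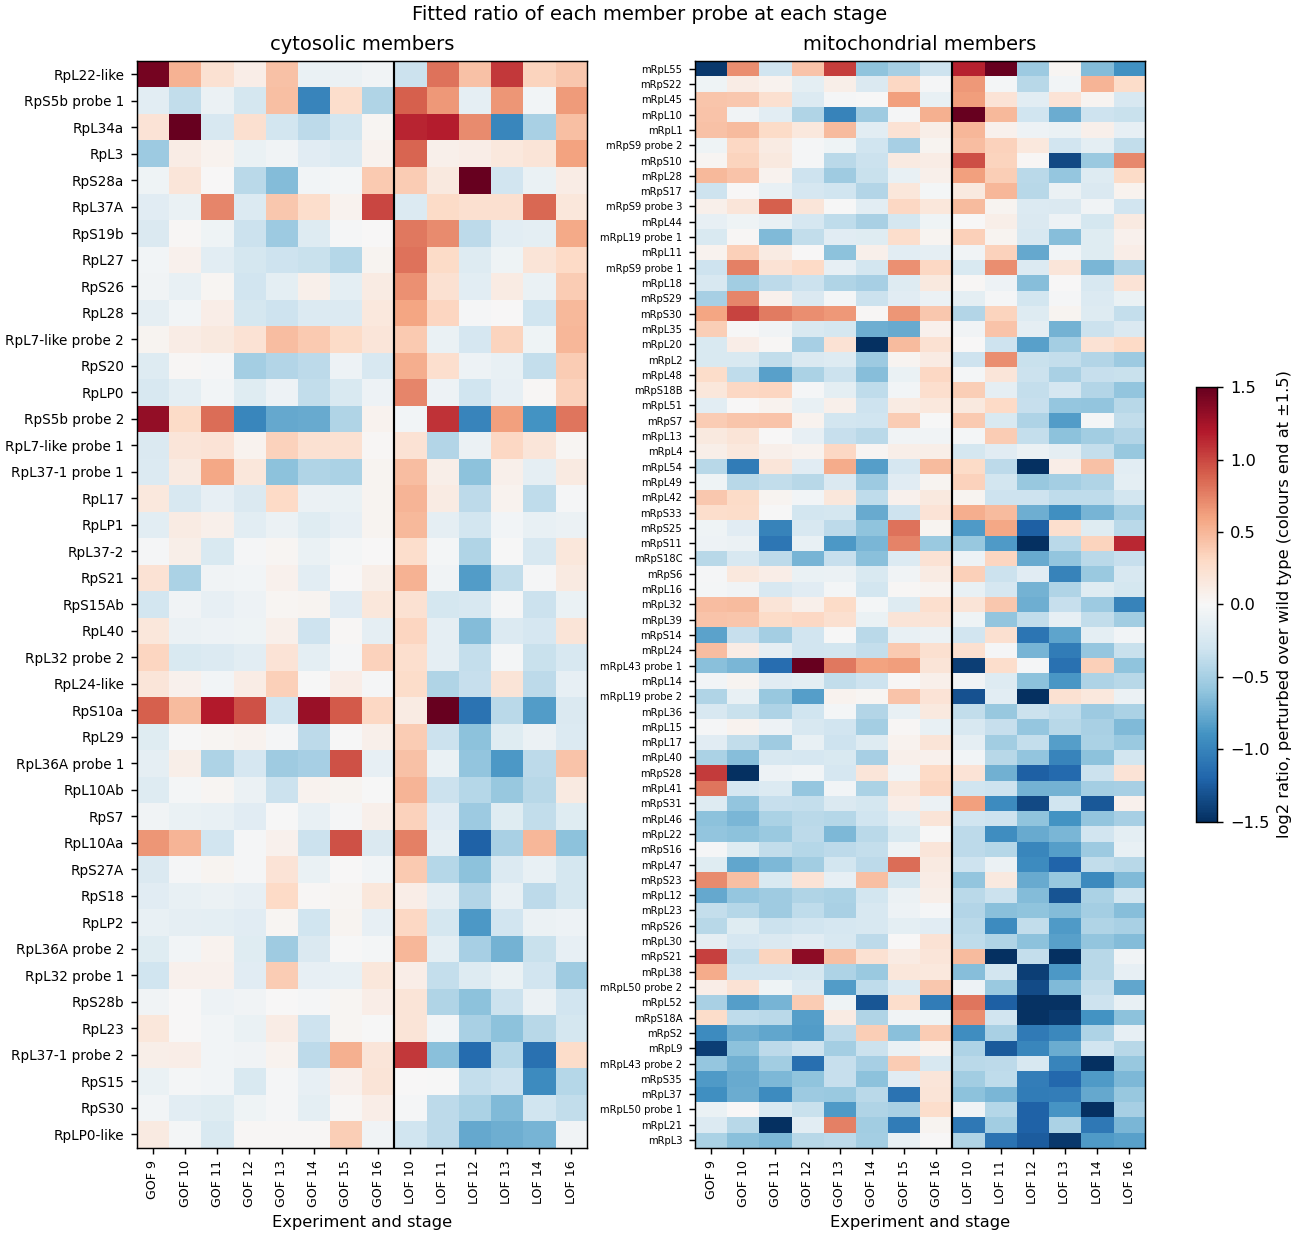
Fitted log2 ratio (perturbed over wild type) of every member probe at each of the 14 experiment and stage groups, cytosolic members in the left panel and mitochondrial members in the right one, ordered by the LOF average. Colours end at ±1.5, and the line parts gain from loss of function. The cytosolic members are mostly red at LOF stage 10, and the mitochondrial members mostly blue at LOF stages 12 and 13. Cytosolic members were also mostly below 0 at LOF stages 12, 13 and 14 (36, 29 and 34 of 41 tested). So were mitochondrial members at LOF stages 14 and 16 (63 and 59 of 71 tested) and at GOF stage 14 (62 of 70).

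GOF stages held fewer calls. At GOF stage 9, 4 of 66 mitochondrial members were lower (9.37% of 17749 probes, 4.75% higher and 4.62% lower), led by mRpL9 with -1.13, -4.06, -0.053 and -0.43 (fitted ratio -1.42), which without replicate 2 gave -0.60 and did not pass. Without replicate 1 or 4 of that stage, where gcm was below 0, 1 and 2 mitochondrial members were lower. At stage 10, 1 of 71 was higher, mRpS30 at 1.01 (limma adjusted p = 0.0041, lost with 2 of the 4 arrays left out singly), and 2 were lower (4.35% of 23275 probes, 3.21% higher and 1.14% lower). At stage 11, 2 of 71 were higher (2.9% of 22798 probes, 2.47% higher and 0.43% lower), mRpS9 probe 3 at 0.90 and mRpS30 at 0.78. mRpS9 probe 3 had 0.24, 0.37, 2.44 and 0.54, and did not pass without replicate 3 (0.36) or replicate 4 (1.02). At stage 12, 1 of 70 was higher, mRpL43 probe 1, with 2.09, 5.61, 3.50 and 0.62 and a fitted ratio of 2.66 (2.06% of 21259 probes, 1.91% higher and 0.155% lower); it was lost without replicate 2 (1.89) or replicate 3 (2.58). At stages 13, 14, 15 and 16 the limma fit called 0 mitochondrial members, with 9, 15, 5 and 0 at an unadjusted p under 0.05, where 3.15% (2.57% higher, 0.579% lower), 1.58% (1.21% higher, 0.373% lower), 0.481% (0.459% higher, 0.0218% lower) and 0.222% (0.144% higher, 0.0784% lower) of all tested probes were called.

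The late stages were set against the early ones within each experiment. In the mutants (stages 13, 14 and 16 minus stages 10 to 12) 3 of 64 mitochondrial members were lower late, with a median of -0.21, and 0 of 38 cytosolic members passed in the limma fit, 0 also at an unadjusted p under 0.05 (median -0.10); over all probes 5.56% were called, 3.96% higher and 1.6% lower, and the median was 0.062. mRpL10 was -0.46 late and 0.60 early, a difference of -1.06 ± 0.28 (SE; limma adjusted p = 0.013). mRpL51 was -0.53 late and 0.035 early, a difference of -0.57 ± 0.15 (SE; limma adjusted p = 0.013). mRpL13 was -0.53 late and -0.00071 early, a difference of -0.53 ± 0.16 (SE; limma adjusted p = 0.044), a call lost with 16 of the 25 arrays left out singly, LOF stage 12 replicate 4 (-0.45) and LOF stage 16 replicate 1 (-0.53) among them. These calls depended on the fit. With the LOF arrays fitted alone 0 of the 64 passed (limma adjusted p = 0.19 for mRpL10, 0.11 for mRpL51 and 0.14 for mRpL13), and with zeros kept 0 of 71 passed. Without centring mRpL51 and mRpL13 reversed to 0.0099 and 0.053, and mRpL10 was -0.48 (limma adjusted p = 0.34). In the GOF experiment (stages 13 to 16 minus 9 to 12) 0 of 39 cytosolic and 0 of 66 mitochondrial members passed in the limma fit, where 1.36% of all probes did (0.298% higher and 1.06% lower); 1 and 9 had an unadjusted p under 0.05, and 4 mitochondrial members passed with array weights.

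Other genes of the translation machinery did not share 1 direction. Beside the counts below, 13.9% of all tested probes were called higher and 13.8% lower in the LOF average. In the GOF average these shares were 14.1% and 13.6%. Among 28 tested cytosolic translation factors, 9 were higher and 6 lower in the LOF average (median 0.045), and 5 were higher and 6 lower in the GOF average (median 0.044). eIF3j was lowest in the mutants (-0.70) and eEF1alpha2, an elongation factor that carries tRNA to the ribosome, highest (0.57). Of 22 tested genes of ribosome biogenesis, 1 was higher and 11 lower in the LOF average (median -0.24), among them Polr1C, a subunit shared by RNA polymerases I and III, at -0.73 and Tif-IA, an initiation factor of RNA polymerase I, at -0.69; in the GOF average 8 were higher and 6 lower (median -0.041), with RIOK1 at 0.92 and Tif-IA at -0.38.

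Of the factors of mitochondrial translation and DNA maintenance, 4 of 20 tested were higher and 8 lower in the LOF average (median -0.22), and 11 of 22 were higher and 4 lower in the GOF average (median 0.23). The elongation factor mEFTs fell to -0.57 in the LOF average and -0.32 in the GOF average, whereas the initiation factor mIF3 rose to 0.42 and 1.07. Oxidative phosphorylation is the system to which the products of mitochondrial translation belong. Of its 43 tested genes, 2 were higher and 9 lower in the LOF average (median -0.021), against 13.9% and 13.8% of all tested probes. In the GOF average 4 of 42 were higher and 9 lower (median -0.075), against 14.1% and 13.6%. Of 3 tested ribosomal proteins that carry other symbols and are not members (Rack1, tko and bonsai), tko, a mitochondrial small-subunit protein, was lower in the LOF average (-0.84), and bonsai, another, was lower in the GOF average (-0.55).

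Markers of other material were read in the same averages, to which the shares of all tested probes given above apply. Of the maternal and germline transcripts, 12 of 16 tested were higher and none lower in the LOF average (median 0.71), and 13 of 18 were higher and none lower in the GOF average (median 0.77). Blood cell markers were lower in 5 of 8 cases in LOF (median -1.29) and in 6 of 8 in GOF (median -0.53), none being higher. Glial markers were lower in 4 of 6 cases in LOF (median -0.38), and in GOF 4 were higher and 2 lower (median 0.32). The list holds gcm, whose call the design fixes; without it 3 of 5 were lower in LOF, and 3 were higher and 2 lower in GOF. Of 4 neuronal markers 1 was lower in LOF and 2 in GOF, and of 3 muscle markers none passed in the limma fit of either. The files hold ratios and no levels, so the summed level of a marker list cannot be given. Their part in the ribosomal protein results was not tested.

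The mitochondrial members lie on every large chromosome arm. In the LOF average 14 of 16 tested on 3L, 8 of 10 on X, 6 of 10 on 2L, 4 of 8 on 2R and 6 of 20 on 3R were lower, with medians of -0.53, -0.40, -0.25, -0.27 and -0.14. For all annotated genes the LOF medians of the same arms were -0.019, 0.031, -0.052, -0.055 and -0.0041, and 354 of 1901, 193 of 1685, 391 of 1745, 418 of 1959 and 382 of 2378 tested were lower. No test of a difference between arms was made. The gcm gene itself lies on 2L.

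These values rest on the array centring. Without it the median of all probes was 0.16 in the LOF average and 0.021 in the GOF average, and 2 of 66 mitochondrial members passed in the GOF average. The centring subtracts 1 value from every probe of an array, so the gap between the class medians, 0.20 in the LOF average and 0.11 in the GOF average (cytosolic minus mitochondrial), hardly depends on it by construction. The cytosolic LOF median was -0.11 with centring, 0.039 without it and 0.035 without LOF stages 12 and 13, so its direction was not settled. Without the array labelled LOF stage 12 replicate 4 the LOF average held 39 lower mitochondrial members and 8 called cytosolic ones, 2 higher and 6 lower, and without LOF stage 16 replicate 1 it held 34 and 4. Without LOF stages 12 and 13 together, 19 mitochondrial members were lower and 1 higher.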

How the data were processed

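The deposited files hold log2 ratios of Cy5 over Cy3, 1 value per spot, in which every probe was spotted 2 times; per the labels' protocols the arrays were scanned and quantified with GenePix, and the background correction and normalization by the authors are not given in the sources used here. Values of 0 and sizes of 9 or more were taken as missing, repeat spots were averaged, and the median of each array was subtracted and the sign of dye-swapped arrays was changed, so that a positive value means more RNA in the perturbed embryos. A linear model over 58 arrays with 14 groups and a dye term for each experiment (16 terms) was fitted per probe, the variances were moderated with limma 3.58.1 (R 4.3.3), and p-values were Benjamini-Hochberg adjusted over all tested probes of a comparison; a probe was tested in a group with 3 or more arrays and both orientations. Averages weight stages equally. Genes were named from the platform annotation; all 112 member probes matched RefSeq through Entrez IDs. The members, the gene lists and the tests were chosen with earlier results of these data known. Named members are the called ones of each class average or, where over 8 were called, the 4 highest and 4 lowest, with the extreme tested members, the 3 largest calls of each other comparison, the largest call of each class at a stage, and the measured paralogues; exceptions are marked in the text. On simulated data with 100 probes shifted by each size, the GOF average recovered 63 and 92 and the LOF average 54 and 86, for log2 shifts of 0.5 and 1, LOF stage 12 recovered 4 and 32, and GOF stage 12 recovered 3 and 31. Promoter and protein sequences were not analysed here. The files give no depth; the number of arrays limits the precision.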

Additional observations from a re-analysis of the deposited data

Results flagged for a closer look

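4 values stood apart from the other arrays of their group by Dixon's criterion, which chance meets in about 1 in 20 groups. Several groups and members were screened and their number is not given. How many such values chance alone would give therefore cannot be said. The mitochondrial median of LOF stage 11 was -0.707 on replicate 2, and the nearest other array had -0.0515. mRpS9 probe 3 was 2.436 on GOF stage 11 replicate 3 (nearest 0.544). mRpL10 was 5.0365 on LOF stage 10 replicate 1 (nearest 1.2145), and mRpL50 probe 1 was -5.254 on LOF stage 14 replicate 2 (nearest -1.011).

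In the mutants 3 mitochondrial members differed between late and early stages by the test of the difference itself: mRpL10 by -1.06, mRpL51 by -0.57 and mRpL13 by -0.53 (log2, late minus early). None of them passed with the LOF arrays fitted alone or with zeros kept, and without centring mRpL51 and mRpL13 reversed to 0.0099 and 0.053.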

How the results depend on the processing

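Of the class medians, 491 kept their value within the spread between arrays and 22 moved over the alternatives other than single left-out arrays; of the named members' values 441 kept direction and call, 119 lost the call, 5 gained it and 2 reversed. Without array centring the calls numbered 0 (cytosolic) and 2 (mitochondrial) in the GOF average, 2 and 4 in the LOF average, 0 and 0 in GOF minus LOF, and 2 cytosolic in LOF late minus early. The cytosolic and mitochondrial medians without centring were -0.37 and -0.33 at GOF stage 9, 0.28 and 0.22 at GOF stage 10, 0.32 and 0.30 at GOF stage 15, -0.47 and -0.58 at LOF stage 11, 0.21 and 0.044 at LOF stage 14, 0.55 and 0.065 at LOF stage 16, and 0.48 and 0.37 in LOF late minus early; mitochondrial medians were -0.098 at GOF stage 11, -0.064 at GOF stage 12 and -0.14 at LOF stage 13, and the late minus early values of mRpL13 and mRpL51 reversed to 0.053 and 0.0099. The median of all probes in LOF late minus early was 0.64 without centring and 0.062 with it.

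Array weights gave 6 cytosolic and 35 mitochondrial calls in the GOF average (28 of the 35 lower), 10 cytosolic calls in the LOF average, 8 and 23 in GOF minus LOF, and 4 and 5 mitochondrial calls in GOF and LOF late minus early. Spot pairs with an SD under 1/3 left few probes: 6 calls of 25 tested (cytosolic) in the GOF average, 13 of 14 (cytosolic, 12 lower) and 8 of 8 (mitochondrial) in the LOF average, 7 of 14 and 5 of 6 in GOF minus LOF, 6 of 19 (mitochondrial) in GOF late minus early, 1 of 14 and 1 of 8 in LOF late minus early, and a GOF stage 11 mitochondrial median of -0.12. With zeros kept, there was 1 cytosolic call in the GOF average, 2 and 4 calls in GOF minus LOF and 0 mitochondrial ones in LOF late minus early, with mitochondrial medians of -0.20 at GOF stage 11 and -0.27 at LOF stage 16. The cytosolic calls of the GOF average were 1 with 1 probe a gene, 1 with no dye term and 1 with no filter. Probes measured on every array gave 10 cytosolic calls in the LOF average, arrays scaled to one spread 4 mitochondrial calls in GOF late minus early, and the LOF arrays alone 0 in LOF late minus early. Chosen after seeing the data, leaving out the paralogues and -like genes gave 0 (GOF average), 2 (LOF average) and 1 (GOF minus LOF) cytosolic calls, and leaving out LOF stages 12 and 13 gave 20 mitochondrial calls in the LOF average. The share of all probes called was not taken under any alternative. A changed count therefore cannot be read as particular to the members. The cause of these changes was not tested.

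Same-numbered arrays of different stages correlated with a median of 0.031 in GOF and 0.025 in LOF. For arrays with different numbers the medians were -0.015 and -0.010. Of 58 arrays, 23 correlated best with their own number. Whether the replicate numbers mark a pairing of the arrays was not tested. The numbers also follow the dye: the perturbed sample was in Cy3 on every replicate 1 and in Cy5 on every replicate 4 and 5. The replicate block thus overlaps with the dye term. With the replicate block the calls were 0 and 8 in the GOF average, 2 and 18 in the LOF average and 5 mitochondrial in GOF minus LOF, with mitochondrial medians of -0.012 at GOF stage 10 and -0.18 at GOF stage 11.

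With single arrays left out, cytosolic calls ranged from 1 to 3 in the GOF average, 4 to 11 in the LOF average (11 without LOF stage 11 replicate 3), 2 to 6 in GOF minus LOF, 0 to 0 in GOF late minus early and 0 to 1 in LOF late minus early. Mitochondrial calls ranged from 17 to 25, 32 to 41, 6 to 12, 0 to 2 and 2 to 6 in the same comparisons. The mitochondrial medians ranged from -0.27 to -0.16 at GOF stage 11 and from -0.27 to 0.017 at LOF stage 11.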
